A study of Caenorhabditis elegans with 43 samples.

Results

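Oocytes of Caenorhabditis elegans carry a set of RNA-binding proteins that keep maternal messages silent until they are needed, and the RNA levels of 10 genes for such proteins were followed through the last larval stages. The genes were gld-1, mex-3, puf-5, puf-3, puf-11, oma-1, oma-2, mex-5, pos-1 and spn-4, found by symbol among the 20182 genes counted; all 10 were in the table, and all 10 passed the filter on low values. As background, growing oocytes make and store messenger RNA that is translated only at meiotic maturation or in the embryo, and proteins that bind the untranslated ends of these messages hold them until then. GLD-1 holds them in the meiotic part of the gonad, PUF-5, PUF-3 and PUF-11 act in later oogenesis, OMA-1 and OMA-2 are required for maturation, and MEX-3, MEX-5, POS-1 and SPN-4 act in the oocyte-to-embryo transition. LIN-41 is itself part of this system: it also acts in adult oocytes, besides its role in larval epidermis as a target of the microRNA let-7.

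The libraries were made from RNA of whole worms, depleted of ribosomal RNA. The worms were raised at 25 °C from arrested L1 larvae, and each library is 1 strain at 1 hour, at steps of 2 h. Libraries came from let-7(n2853) (10, from 18 to 36 h), lin-41(xe11) (11, from 18 to 38 h), the strain with both alleles, lin-41(xe11);let-7(n2853), called the double mutant here (11, from 18 to 38 h) and the wild type N2 (11, from 18 to 38 h). As background, n2853 is a point mutation of let-7 whose effect depends on temperature, and xe11 changes the let-7 sites of the lin-41 message so that they pair with the n2853 form of let-7 in place of the normal form. The libraries of 18 to 26 h were taken as the early window and those of 28 to 36 h as the late window, so that each strain has n = 5 libraries in either. There is 1 library per strain and hour, and the labels do not say that libraries came from separate cultures, so the p-values measure only the spread between these samples, which may be technical. All 3 mutants are compared with the same N2 libraries. In whole worms, fewer germ cells and less RNA per germ cell cannot be told apart.

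Libraries held 11.2 to 32.9 M counts, and those of let-7(n2853), with 22.9 to 32.9 M, were the deepest; any difference in how that strain's libraries were made cannot be told apart from the strain. lin-41, the target that checks the labels, stood at 160, 135, 109, 105 and 108 CPM (the count over the TMM-scaled library size in M counts) in let-7(n2853) over the late window, against 44.2, 38.0, 28.5, 29.6 and 39.2 CPM in N2. Both strains with lin-41(xe11) lay between these. The late mean of lin-41 was 75.7 CPM in lin-41(xe11) and 76.2 CPM in the double mutant, against 124 CPM in let-7(n2853) and 35.9 CPM in N2. The 21 listed germ granule and meiosis genes summed to between 557 and 3530 CPM per library. The 9 listed genes that embryos switch on summed to at most 0.615 CPM in any library of 18 to 36 h, and none of them passed the filter on low values. Sperm genes were near 0 before 28 h, with at most 2.24 CPM summed, and reached 669 to 739 CPM in the highest late library of each strain.

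All 10 genes rose along the wild type course, by between 0.14 and 0.97 log2 units per 2 h. They passed the test at an adjusted p of 0.0021 or lower (edgeR's quasi-likelihood test on the 11 N2 libraries with a linear trend and an 8 h rhythm, Benjamini-Hochberg over all tested genes), where 60.3% of all 13295 genes changed in either direction and 4390 rose. The median slope was 0.50 for the 10 genes and 0.01 for all genes, and all 10 kept the call when any single N2 library was left out.

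gld-1, on chromosome I, encodes a KH-domain repressor of the STAR family that guards meiotic prophase. In N2 it had 8.74, 8.50, 11.5, 17.2 and 23.2 CPM from 18 to 26 h, then 24.6, 33, 59.2, 110, 153 and 196 CPM from 28 to 38 h. Its level climbed at every step from 20 h on, and its slope was 0.50 ± 0.03 per 2 h (SE). mex-3, also on chromosome I, encodes a KH-domain protein known for repressing pal-1 in the germline and anterior embryo. It differed in shape from the other 9: N2 had 15.8, 19.8, 23.8, 17.9 and 20.2 CPM in the early window, 22.1, 22.4, 21.3, 28.9 and 42.2 CPM in the late window and 66.1 CPM at 38 h. Its level stayed between 15.8 and 23.8 CPM until 32 h and climbed over the last 3 libraries, which gave the smallest slope of the set, 0.14 ± 0.03. The correlation of mex-3 with the mean of the other 9 genes over all 43 libraries was 0.81, against 0.95 to 0.99 for each of the others, as a description of libraries that share hours and strains.

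Of the 3 Pumilio-family genes, puf-5 and puf-3 had the lowest levels of the 10 at 18 h and the steepest slopes. puf-5 (chromosome II, 8575541 to 8577787, WBcel235) had at most 2 counts in the N2 libraries of 18 and 20 h, under 1 CPM until 26 h, then 1.14, 0.825, 3.23, 10.8, 24.2 and 62.4 CPM from 28 to 38 h. It was barely detected before the last larval stage and its slope of 0.97 ± 0.09 was the largest of the 10. puf-3 (chromosome IV, 13510307 to 13512162) had 0.185 CPM at 18 h from 3 counts, 1.65, 2.70, 3.23, 10.4 and 20.1 CPM in the late window and 37.2 CPM at 38 h in N2. puf-11 (chromosome IV, 6421585 to 6423497), a close relative of puf-3 in sequence, ran from 1.35 CPM at 18 h through 4.32, 6.53, 7.92, 21 and 36.6 CPM in the late window to 60.8 CPM at 38 h in N2. Reads of this pair may have been split between them in the counting, whose handling of such reads was not given, so their sum was also tested.

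oma-1 (chromosome IV, 8888976 to 8890999) and oma-2 (chromosome V, 8029439 to 8031214) encode CCCH zinc finger proteins that can stand in for each other in maturation. N2 had 0.861, 0.730, 1.56, 1.37 and 2.10 CPM of oma-1 in the early window, 2.92, 3.68, 5.74, 7.45 and 8.61 CPM in the late window and 16.7 CPM at 38 h. oma-2 had 1.05, 1.06, 1.62, 2.39 and 2.97 CPM, then 3.43, 4.13, 4.69, 6.74 and 10.6 CPM, and 25.6 CPM at 38 h. The slope was 0.43 ± 0.03 log2 units per 2 h for oma-1, whose level dipped at 20 and 24 h, and 0.41 ± 0.04 for oma-2.

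mex-5 (chromosome IV, 13353723 to 13356104) and pos-1 (chromosome V, 8414086 to 8415254) encode CCCH proteins that set up polarity and cell fate in the early embryo, and spn-4 (chromosome V, 6783187 to 6784903) encodes an RRM protein of the same stage. In N2 mex-5 had 2.89 CPM at 18 h, 45.0 CPM at 36 h and 80.6 CPM at 38 h, with a slope of 0.50 ± 0.02. pos-1 had 0.492 CPM at 18 h, 4.53, 12.3 and 24.1 CPM from 32 to 36 h and 53.1 CPM at 38 h. spn-4 was higher from the start, with 8.06 CPM at 18 h, 45.3 CPM at 36 h and 86.6 CPM at 38 h. spn-4 shares 8 bases of exon with ZC404.15 on the opposite strand, and none of the other 9 shares exon bases with another gene in the Ensembl annotation of WBcel235. Overlap within introns was not checked.

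**Figure D1:**
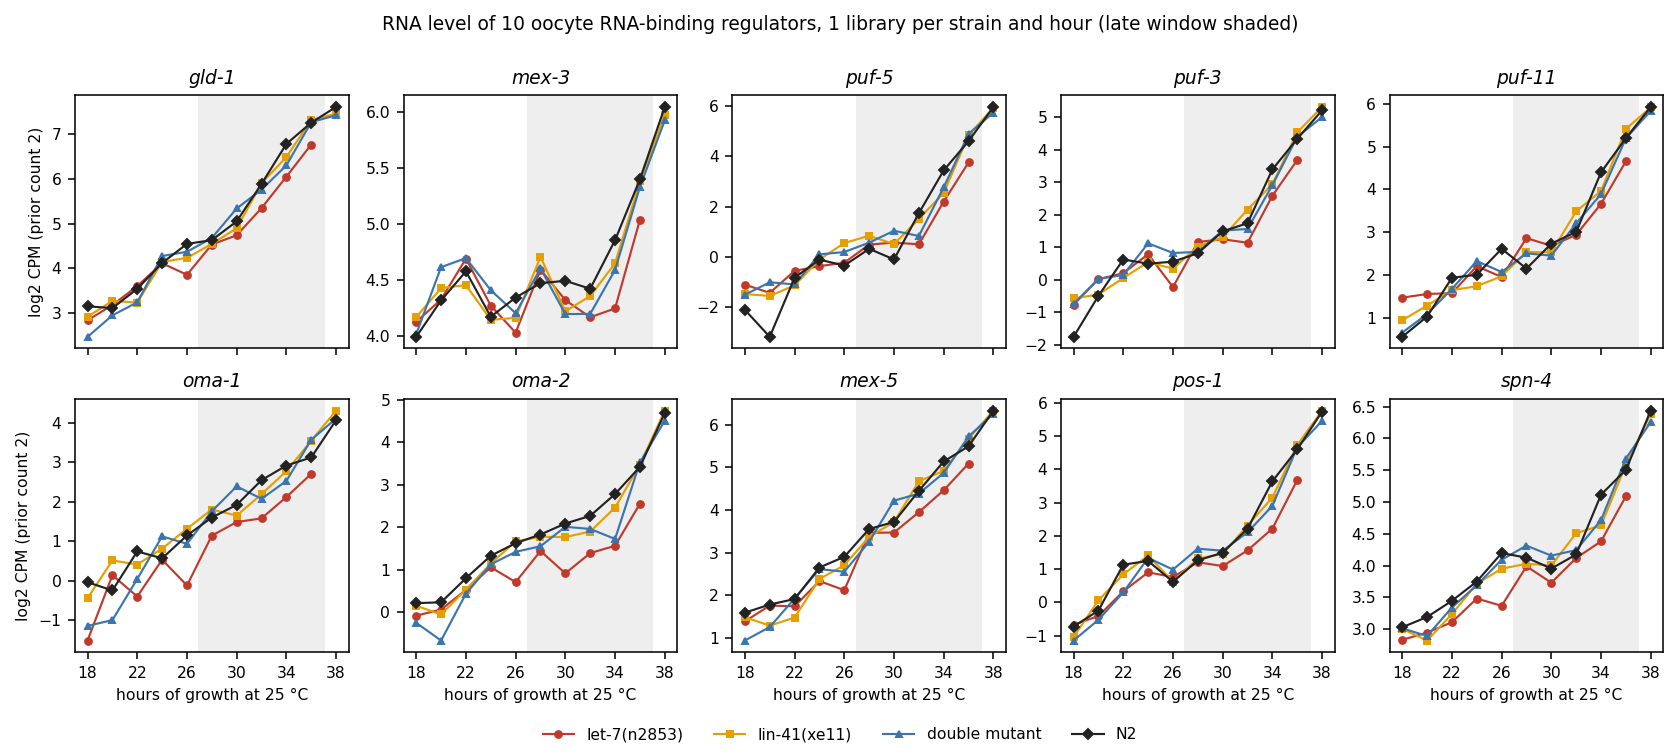
RNA level of each of the 10 genes (log2 CPM with a prior count of 2, vertical axes differ) against hours of growth at 25 °C, 1 point per library, with let-7(n2853) in red, lin-41(xe11) in orange, the double mutant in blue, N2 in black and the late window shaded. The N2 line climbs in all panels from 32 to 38 h, and the let-7(n2853) points lie under the N2 points in every panel at 32, 34 and 36 h.

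Levels of different genes can be set side by side only per length. At 38 h in N2, gld-1 had the highest level with 88.4 CPM per kb of exon, followed by spn-4 with 56.9, pos-1 with 47.6, mex-5 with 40.8, puf-11 with 35.2, mex-3 with 32.4, puf-5 with 30.2, puf-3 with 21.4, oma-2 with 16.6 and oma-1 with 9.27. These are single libraries, and neighbours in this order were not tested against each other. At 18 h the order was another: mex-3 led with 7.74 CPM per kb and spn-4 followed with 5.29, while puf-5 had 0.0595. gld-1 was highest and oma-1 lowest at 36 h in each of the 4 strains.

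In the late window, 9 of the 10 genes were lower in let-7(n2853) than in N2 by the test, where 12.6% of all 13295 genes were lower. The median log2 fold change of the 10 was -0.45, against -0.02 over all genes, and all 10 values were negative. The 9 were the OMA pair, gld-1, mex-3, puf-5, puf-3, mex-5, pos-1 and spn-4; puf-11 did not pass. The test was edgeR's quasi-likelihood fit to the 40 libraries of 18 to 36 h with the hour as a factor, and each adjusted p is over all genes tested. Without the hour term the rise over the hours counts as spread within a window, which makes a call harder to reach. In that fit 0 of the 10 passed, with a median of -0.56, where 333 of 13295 genes were lower. With limma on the deposited log2 values 4 passed, with a median of -0.33, where 1080 genes were lower.

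The maturation pair held the largest difference. oma-2 had 2.59, 1.77, 2.50, 2.84 and 5.74 CPM in let-7(n2853) from 28 to 36 h, against 3.43, 4.13, 4.69, 6.74 and 10.6 CPM in N2. It was lower at 5 of 5 hours, and the let-7(n2853) level stayed between 1.77 and 2.84 CPM to 34 h; the log2 fold change was -0.93 ± 0.15 (SE, edgeR adjusted p = 4.8e-05). oma-1 had 2.10, 2.69, 2.88, 4.24 and 6.42 CPM in let-7(n2853), against 2.92, 3.68, 5.74, 7.45 and 8.61 CPM in N2. It too was lower at 5 of 5 hours, by -0.65 ± 0.19 (edgeR adjusted p = 0.014). With the counts of both genes summed the change was -0.78 ± 0.15 (edgeR adjusted p = 0.00045).

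The meiotic repressor gld-1 had 23.0, 26.6, 40.6, 66.3 and 109 CPM in let-7(n2853), against 24.6, 33, 59.2, 110 and 153 CPM in N2. The strains were close at 28 h and apart from 32 h, and the log2 fold change over the window was -0.44 ± 0.11 (edgeR adjusted p = 0.0035). mex-3 had 24.0, 19.9, 17.9, 18.9 and 32.8 CPM in let-7(n2853), against 22.1, 22.4, 21.3, 28.9 and 42.2 CPM in N2. It was lower at 4 of 5 hours and the change was the smallest that passed, -0.26 ± 0.08 (edgeR adjusted p = 0.019). Along its own 10 libraries, which end at 36 h, let-7(n2853) had a mex-3 slope of 0.03 ± 0.02 per 2 h, against 0.10 in N2 without its 38 h library; the difference between these slopes was not tested.

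Of the Pumilio-family genes, puf-5 had 1.3, 1.38, 1.31, 4.50 and 13.5 CPM in let-7(n2853), against 1.14, 0.825, 3.23, 10.8 and 24.2 CPM in N2. let-7(n2853) was the higher strain at 28 and 30 h and the lower one at 32, 34 and 36 h, and the change over the window was -0.72 ± 0.23 (edgeR adjusted p = 0.022). puf-3 had 2.13, 2.27, 2.09, 5.90 and 12.8 CPM in let-7(n2853), against 1.65, 2.70, 3.23, 10.4 and 20.1 CPM in N2, a change of -0.46 ± 0.17 that passed narrowly (edgeR adjusted p = 0.048). puf-11 had 7.15, 6.30, 7.55, 12.6 and 25.1 CPM in let-7(n2853), against 4.32, 6.53, 7.92, 21 and 36.6 CPM in N2. It was lower at 4 of 5 hours and higher at 28 h, and its change of -0.18 ± 0.16 did not pass (edgeR adjusted p = 0.47). With puf-3 and puf-11 summed to 1 row the change was -0.24 ± 0.16 (edgeR adjusted p = 0.31). puf-11 gives most of the counts in this sum, which therefore does not test the assignment of reads to puf-3.

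Among the genes with embryonic roles, pos-1 differed most. It had 2.20, 2.02, 2.84, 4.54 and 12.7 CPM in let-7(n2853), against 2.29, 2.70, 4.53, 12.3 and 24.1 CPM in N2, and was lower at 5 of 5 hours, by -0.78 ± 0.15 (edgeR adjusted p = 0.00034). Its level at 34 h was 36.8% of that in N2, the lowest share of any of the 10 genes at 34 or 36 h. mex-5 had 10.9, 11, 15.3, 21.9 and 34.0 CPM in let-7(n2853), against 11.6, 13.1, 21.8, 35.1 and 45.0 CPM in N2, a change of -0.39 ± 0.12 (edgeR adjusted p = 0.023). spn-4 had 15.8, 13.2, 17.3, 20.7 and 34.0 CPM in let-7(n2853), against 17.3, 15.4, 17.9, 34.6 and 45.3 CPM in N2, a change of -0.33 ± 0.09 (edgeR adjusted p = 0.013). Both were lower at 5 of 5 hours.

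The median log2 difference of the 10 genes in let-7(n2853) from N2 was -0.07 at 28 h, -0.25 at 30 h, -0.57 at 32 h, -0.77 at 34 h and -0.52 at 36 h. In the early window it was -0.74 at 26 h, with 8 of 10 genes lower, and between -0.30 and 0.04 from 18 to 24 h. Without the 34 h libraries only oma-2 (-0.84), pos-1 (-0.57) and gld-1 (-0.36) passed; without those of 32 h or of 36 h, 4 genes passed, and oma-2, pos-1 and gld-1 were among them each time. With developmental age, estimated from 13178 genes outside the lists, in place of the hour, only oma-2 passed (-0.63, edgeR adjusted p = 0.016). Of the genes called with the hour, puf-5 (0.04) and puf-3 (0.10) turned positive. The change of puf-11, not called with the hour, ran from -0.38 to 0.19 over all alternatives run. By the age estimate let-7(n2853) was on average 0.78 h younger than its hour over the late window, and 0.82 h younger over the early one. lin-41(xe11) was 1 h younger early and 0.16 h older late. The double mutant was 0.04 h older early and 0.2 h younger late. N2 was 0.12 h older late, but the reference was a curve fitted to these same N2 libraries, so its small offset is no independent control.

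**Figure D2:**
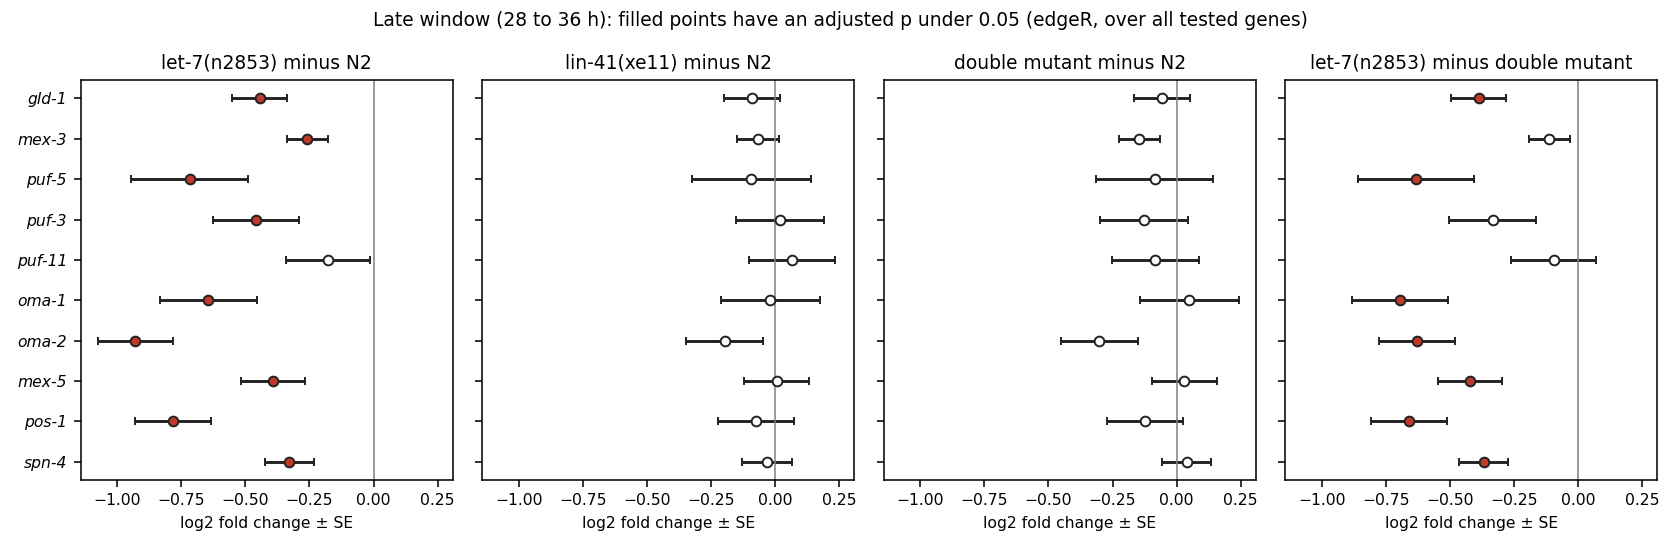
Log2 fold change with its standard error for each of the 10 genes in the late window, for each mutant over N2 and for let-7(n2853) over the double mutant; filled points passed an edgeR adjusted p under 0.05. Filled points are 9 in let-7(n2853) over N2, 7 in let-7(n2853) over the double mutant and 0 in both other panels.

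Set against the double mutant, which carries the same let-7 allele together with lin-41(xe11), let-7(n2853) was lower for 7 of the 10 genes, where 11.6% of all genes were lower. The median change of the 10 was -0.41, against 0.01 over all genes. This comparison shares its let-7(n2853) libraries with the one above, so the pair of results is not independent.

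oma-1 had 2.10, 2.69, 2.88, 4.24 and 6.42 CPM in let-7(n2853), against 3.27, 5.13, 4.10, 5.66 and 11.8 CPM in the double mutant, a change of -0.70 ± 0.19 (edgeR adjusted p = 0.0079). oma-2 had 2.59, 1.77, 2.50, 2.84 and 5.74 CPM in let-7(n2853), against 2.82, 3.91, 3.77, 3.18 and 11.4 CPM in the double mutant, a change of -0.63 ± 0.15 (edgeR adjusted p = 0.0029). Each of the pair was lower in let-7(n2853) at 5 of 5 hours, though oma-2 differed little at 28 and 34 h. gld-1 had 23.0, 26.6, 40.6, 66.3 and 109 CPM in let-7(n2853), against 25.5, 40.4, 54.2, 79.0 and 155 CPM in the double mutant, a change of -0.39 ± 0.11 (edgeR adjusted p = 0.0093). pos-1 had 2.20, 2.02, 2.84, 4.54 and 12.7 CPM in let-7(n2853), against 2.95, 2.82, 4.19, 7.36 and 25.2 CPM in the double mutant, a change of -0.66 ± 0.15 (edgeR adjusted p = 0.0018).

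The other genes that passed were puf-5 (-0.63, edgeR adjusted p = 0.044), mex-5 (-0.42, 0.014) and spn-4 (-0.37, 0.0053). mex-3 (-0.11), puf-3 (-0.33) and puf-11 (-0.10) did not pass. Without the 36 h libraries 3 genes passed, oma-1 (-0.63), pos-1 (-0.53) and oma-2 (-0.50), and with age in place of the hour 0 did.

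Neither strain that carries lin-41(xe11) differed from N2 by the test for any of the 10 genes late in the course. In lin-41(xe11) 0 of 10 passed, where 0.361% of all genes did; the edgeR adjusted p ran from 0.715 to 0.996, 0 had an unadjusted p under 0.05, and DESeq2 also called 0. In the double mutant 0 of 10 passed, where 0.880% of all genes did, with an edgeR adjusted p from 0.42 to 0.95, 0 at an unadjusted p under 0.05 and 0 by DESeq2. The estimates in lin-41(xe11) ran from -0.20 ± 0.15 for oma-2 to 0.07 ± 0.17 for puf-11, and those in the double mutant from -0.30 ± 0.15 for oma-2 to 0.05 ± 0.19 for oma-1. The standard errors ran up to 0.23, so that small changes could not be detected for every gene.

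The values by hour showed more structure than the window means. oma-2 had 3.30, 3.29, 3.61, 5.39 and 11 CPM from 28 to 36 h in lin-41(xe11) and 26.6 CPM at 38 h; the double mutant had 2.82, 3.91, 3.77, 3.18 and 11.4 CPM and 22.6 CPM at 38 h. puf-5 had 1.69, 1.32, 2.75, 5.73 and 28.6 CPM and 61.3 CPM at 38 h in lin-41(xe11), and 1.38, 1.95, 1.67, 6.72 and 29.6 CPM and 53.4 CPM at 38 h in the double mutant. gld-1 had 23.2, 29.7, 59.8, 89.9 and 160 CPM and 177 CPM at 38 h in lin-41(xe11), and 25.5, 40.4, 54.2, 79.0 and 155 CPM and 172 CPM at 38 h in the double mutant. Each of these 3 genes stood under N2 at 34 h in both strains and above it at 36 h.

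At 34 h all 10 genes were lower than in N2 in each mutant, at a median of 58.3% of the N2 level in let-7(n2853), while lin-41(xe11) stood at 76.9% and the double mutant at 71.4%. All 10 were also lower at 22 h in lin-41(xe11), with a median log2 difference of -0.30, and at 32 h in let-7(n2853). At 36 h all 10 were lower in let-7(n2853), with a median of 69.9% and a range of 52.5% to 77.8%, whereas 1 of 10 was lower in lin-41(xe11) (median 111%) and 2 of 10 in the double mutant (median 106%). At 38 h lin-41(xe11) had a median of 99.7% and the double mutant one of 88.2%. These shares all rest on 1 N2 library per hour. By the age estimate the 34 h library of let-7(n2853) stood at 32.9 h, that of lin-41(xe11) at 33.6 h and that of the double mutant at 33.4 h. That of N2, which is itself part of the reference, stood at 34.7 h. The largest 2 h step of log2 CPM fell between 34 and 36 h for 6 genes in let-7(n2853), for 7 genes of both lin-41(xe11) and the double mutant and for 2 in N2, and between 32 and 34 h for 2 genes in let-7(n2853) and 5 in N2. For the remaining genes of each strain it fell by 32 h, and some of these steps rest on few counts. puf-5 in N2 went from 0 to 7 counts between 20 and 22 h. oma-1 in let-7(n2853) went from 6 to 34 counts between 18 and 20 h.

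**Figure D3:**
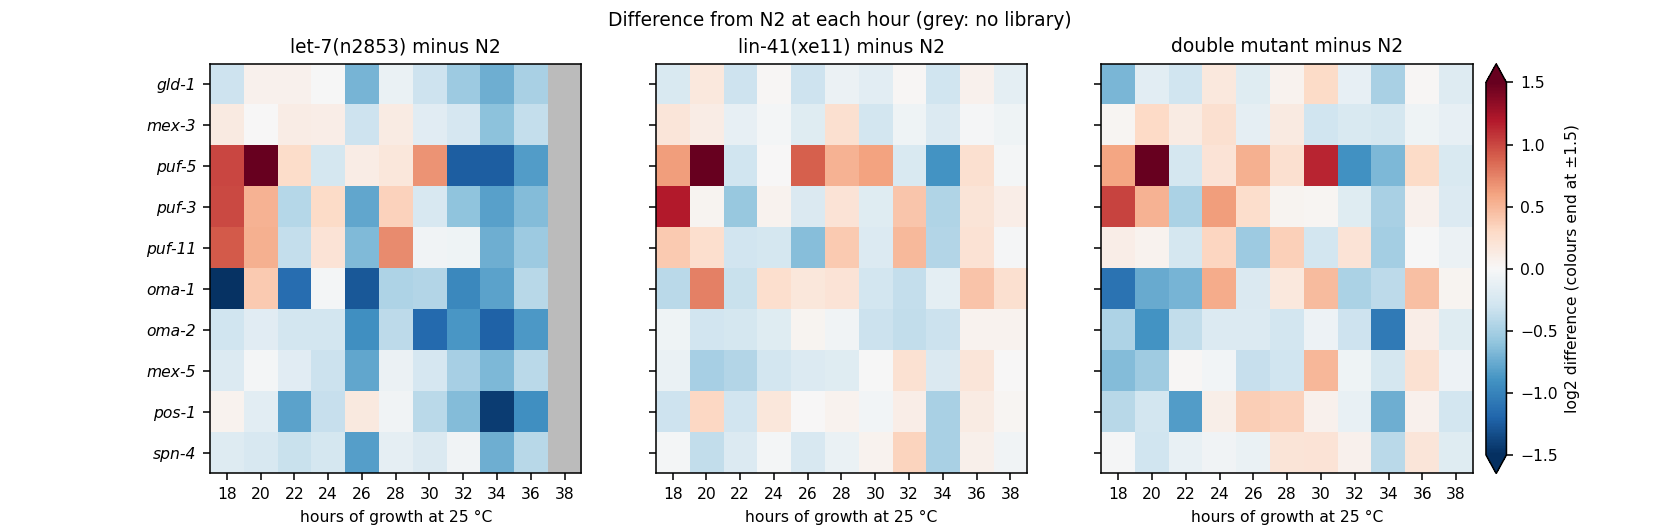
Log2 difference from the N2 library of the same hour for each of the 10 genes (down) at each hour (across), with 1 panel per mutant; blue is lower than N2, red is higher and grey marks the hour without a let-7(n2853) library. The 34 h column is blue for all 10 genes in the 3 panels, and in let-7(n2853) the columns of 32 and 36 h are blue as well.

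In the early window few of the 10 genes passed. In let-7(n2853) spn-4 alone did, at -0.37 ± 0.10 (edgeR adjusted p = 0.0095), where 9.73% of all genes were lower. It had 7.02, 7.60, 8.52, 11.1 and 10.2 CPM in let-7(n2853) from 18 to 26 h, against 8.06, 9.03, 10.8, 13.3 and 18.2 CPM in N2. spn-4 was lower at 5 of 5 early hours, by most at 26 h, and without the 26 h libraries none of the 10 passed. oma-1 was at -0.72 ± 0.26 (edgeR adjusted p = 0.053) from 6 to 38 counts per let-7(n2853) library; it passed with DESeq2 (-0.72, adjusted p = 0.030), without the 20 h libraries (-1.02) and without those of 24 h (-0.92), and the summed OMA pair passed at -0.53 ± 0.18 (edgeR adjusted p = 0.041). The other 8 estimates in let-7(n2853) ran from -0.42 ± 0.18 for oma-2 to 0.39 ± 0.40 for puf-5. In lin-41(xe11) 0 of 10 passed, where 0.0677% of genes did, with estimates from -0.30 ± 0.16 for mex-5 to 0.52 ± 0.43 for puf-5, 0 at an unadjusted p under 0.05 and 0 by DESeq2. In the double mutant 0 of 10 passed, where 0.143% of genes did, with estimates from -0.39 ± 0.19 for oma-2 to 0.51 ± 0.42 for puf-5, 1 at an unadjusted p under 0.05 and 0 by DESeq2.

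Whether the late difference exceeded the early one was tested as the change between the windows, and no gene of the set passed in any mutant. Of all genes, 0.0827% passed in let-7(n2853), while lin-41(xe11) had 0.0226% and the double mutant 0.00752%. In let-7(n2853) 3 of the 10 had an unadjusted p under 0.05 and DESeq2 called 0. The estimates for these were -1.10 ± 0.46 for puf-5, -0.51 ± 0.23 for oma-2 and -0.27 ± 0.11 for mex-3. An unadjusted p under 0.05 was seen for 0 of the 10 in lin-41(xe11) and for 1 in the double mutant, and DESeq2 called 0 in either. So the late calls are not shown to be particular to the late window.

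Other lists of germline genes held both genes that were lower in let-7(n2853) and genes that did not pass. Of the 21 germ granule and meiosis genes, 0 were higher and 7 lower in the late window, with a median of -0.18; examples are csr-1, an Argonaute (-0.29 ± 0.05, edgeR adjusted p = 0.00012), and the P granule helicases glh-4 (-0.28 ± 0.06, edgeR adjusted p = 0.00099) and glh-1 (-0.23 ± 0.05, edgeR adjusted p = 0.0026). Of 26 other germline RNA regulators tested, 1 was higher, lin-41 itself (1.78 ± 0.13), and 16 were lower, with a median of -0.24. Among them were gld-3 (-0.33 ± 0.05), a partner of the poly(A) polymerase GLD-2, and cpb-3 (-0.40 ± 0.07), a relative of the CPEB family. Over all genes 10.4% were higher and 12.6% lower in this comparison, with a median of -0.02.

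Among 11 reported targets of these proteins that were tested, 0 were higher and 4 lower, with a median of -0.17. rme-2, the yolk receptor and a reported GLD-1 target, was lower (-0.52 ± 0.13, edgeR adjusted p = 0.0043), as were lin-45, the Raf kinase (-0.26 ± 0.06), and zif-1 (-0.42 ± 0.11), a ubiquitin ligase adaptor of the embryo. Of 13 genes for maturation kinases and polarity, 1 was higher, lgl-1 (0.30 ± 0.06), and 5 were lower, among them par-2 (-0.44 ± 0.09) and cyb-3, a B-type cyclin (-0.41 ± 0.09). The list of the oocyte surface and eggshell had the median farthest from 0: of 11 tested, 0 were higher and 8 lower, with a median of -0.66, among them chs-1, the chitin synthase of the eggshell (-0.73 ± 0.12), and cbd-1 (-0.58 ± 0.10). perm-4, another eggshell gene, was at -2.97 ± 0.38.

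Markers of sperm and of other tissues were counted in the same comparison. Of 11 sperm genes tested, 0 were higher and 3 lower in let-7(n2853), with a median of -0.34. The 3 were nspd-2 (-0.80 ± 0.14), msp-64 (-1.26 ± 0.24) and msp-49 (-0.97 ± 0.27), and msp genes encode the major sperm protein. The other 8 ran from -0.45 for ssp-10 to 0.07 for spe-11. As for puf-3 and puf-11, the handling of reads shared between similar genes was not given, which may affect the msp and nspd values. The sperm list summed to 9.28 to 669 CPM in the late let-7(n2853) libraries and 13.0 to 713 CPM in those of N2, and msp-19 was at 0 in all late libraries of both. Of 6 somatic gonad genes 0 passed, with a median of -0.15; the smallest p were those of fkh-6 (-0.34 ± 0.20), lim-7 (-0.15 ± 0.09) and inx-9 (-0.16 ± 0.11). Of 10 epidermal genes 1 was higher and 3 lower, and col-19, an adult cuticle collagen, was at -6.53 ± 0.62, bli-1, another cuticle collagen, at -3.87 ± 0.45 and ajm-1, a junction gene, at -0.31 ± 0.07. Their part in the differences of the 10 genes was not tested. The lists overlap in glp-1, nos-2 and rme-2, which stand in 2 lists each.

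**Figure D4:**
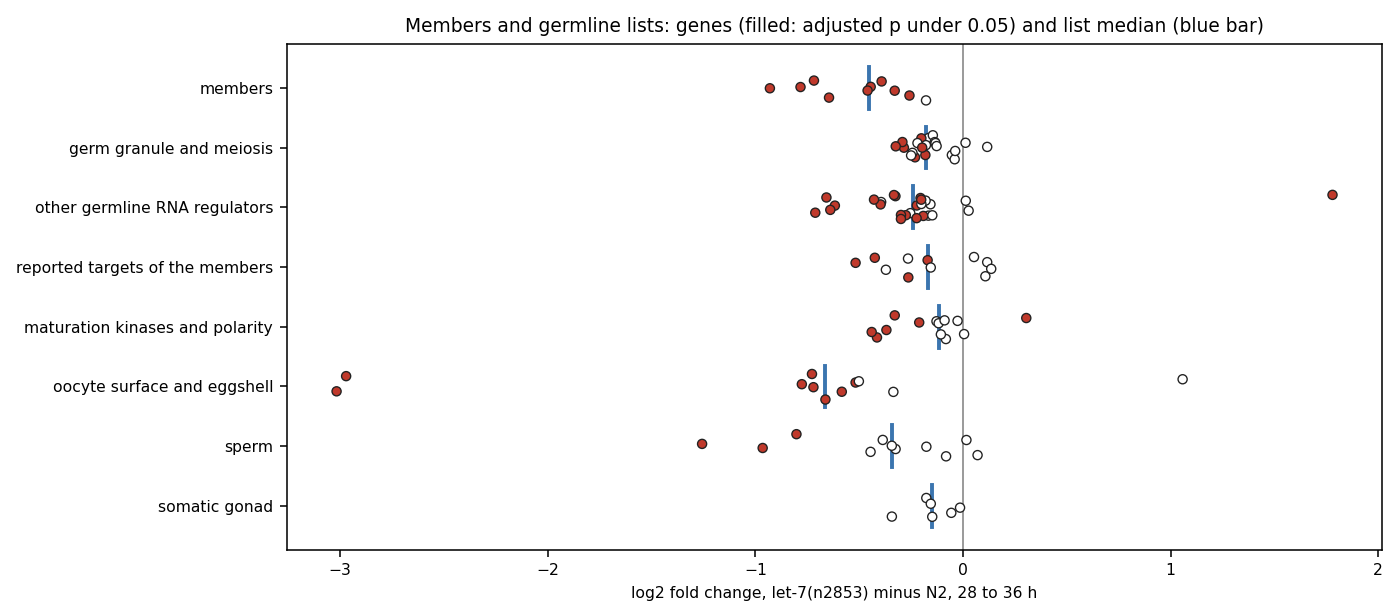
Log2 fold change of let-7(n2853) over N2 in the late window for every tested gene of each list except the epidermal one (points, filled where the edgeR adjusted p is under 0.05), with the median of each list shown as a blue bar. The 10 oocyte regulators have a median of -0.45, between the oocyte surface and eggshell genes at -0.66 and the germ granule and meiosis genes at -0.18; the point at 1.78 is lin-41.

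The set was also read relative to other germline RNA. The 10 genes together amounted to 10.9% of the summed CPM of the 21 germ granule and meiosis genes in let-7(n2853) at 36 h, against 13.3% in lin-41(xe11), 13.7% in the double mutant and 12.4% in N2. At 34 h let-7(n2853) had 6.91%, lin-41(xe11) 7.86%, the double mutant 7.58% and N2 9.61%. From 18 to 32 h the share lay between 4.66% and 6.99% in all strains, and at 38 h it reached 20.0% in lin-41(xe11), 18.4% in the double mutant and 19.4% in N2. In N2 the set summed to 39.6 CPM at 18 h, 150 CPM at 32 h and 410 CPM at 36 h, and the germ granule and meiosis list to 607, 2232 and 3319 CPM at these hours. Abundant genes lead the sums of the set, and the others add little to the share. At 18 h in N2 mex-3 had 15.8 CPM, gld-1 8.74 CPM and spn-4 8.06 CPM. gld-1 had 153 CPM at 36 h in N2. The share at 36 h was above every value from 18 to 32 h in all 4 strains. When the 21 genes were used to scale the libraries, oma-2 (-0.74, edgeR adjusted p = 0.00035) and pos-1 (-0.57, edgeR adjusted p = 0.0023) passed in let-7(n2853) over N2, and the other 8 did not; this scaling moved the median of all genes to 0.16.

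**Figure D5:**
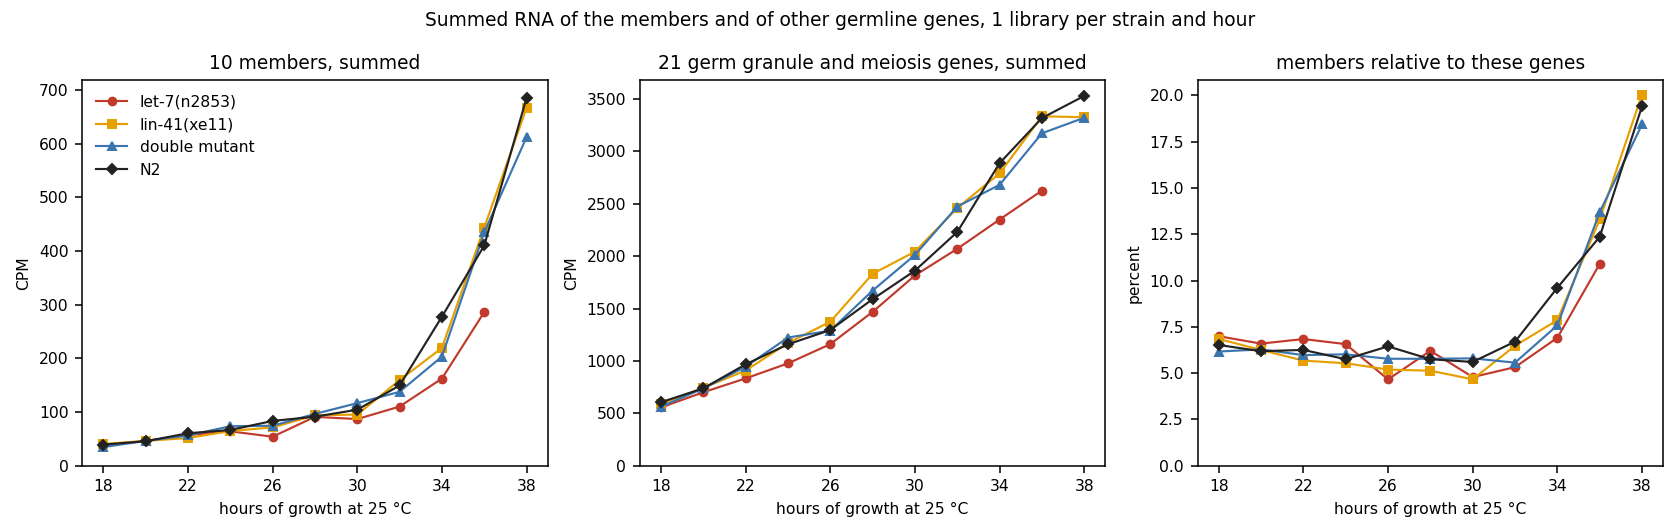
Summed CPM of the 10 oocyte regulators (left), summed CPM of the 21 germ granule and meiosis genes (middle) and the first as a percentage of the second (right) against hours of growth, 1 library per point and 1 line per strain. The share in the right panel stays between 4.66% and 6.99% up to 32 h, and at 36 h let-7(n2853) is the lowest of the 4 strains in each panel.

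The genes whose course over the 43 libraries was most like the mean of the set were gfat-2 (Pearson r 0.99), rme-2, gln-6, ifet-1, cpg-2, chs-1, era-1, egg-2, cpg-1 and gln-5 (0.99). Of these, ifet-1 encodes a translational repressor that binds eIF4E, cpg-1 and cpg-2 encode eggshell proteoglycans, and egg-2 encodes an oocyte surface receptor needed for fertilisation. For single genes, the closest were cpb-3 to oma-1 (0.97), spn-4 to oma-2 (0.98), egg-1 to puf-5 (0.99), puf-11 to puf-3 (0.99), egg-2 to puf-11 (0.99), cpg-2 to pos-1 (0.99), gld-1 to mex-5 (0.99), Y18D10A.11 to gld-1 (0.99), WBGene00002221, for which no symbol was matched, to spn-4 (0.99) and skpo-1 to mex-3 (0.93). The libraries share hours and strains, so these values describe a common course and nothing more.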

How the data were processed

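Total RNA of whole worms was depleted of ribosomal RNA and sequenced in 43 libraries, per the labels' protocols. The authors deposited 1 count per gene and library for 20182 genes; aligner, counter, strand setting, treatment of reads with several matches and genome build are not given in the sources used here. The authors also deposited log2 values, which equal the log2 of counts scaled to a common total (26.10 M in let-7(n2853), 12.02 M in the other strains) plus 8; they served only as an alternative, brought to 1 total. Groups are the labelled strains and hours.

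Symbols were matched for 18778 IDs, and coordinates came from Ensembl release 115 of WBcel235. Counts were fitted with edgeR 4.0.16 in R 4.3.3 (TMM, quasi-likelihood test, mean CPM of at least 1 over 40 libraries, 13295 genes tested, 16 model columns, 24 residual degrees of freedom). Terms were the 10 hours and, for each mutant, its early and its late window. The labels match libraries of different strains by hour only, and do not say that they were grown or prepared together. The hour term is what is called the replicate block here. The N2 trend had 7 residual degrees of freedom. Benjamini-Hochberg adjustment covered every gene tested, and a call needs an adjusted p under 0.05. Values per library are CPM, counts over TMM-scaled library sizes; differences by hour used a prior count of 2. The fit was tested on simulated data for let-7(n2853) over N2 in the late window, on 13295 genes. It recovered 96% of 100 genes changed by a log2 of 1 and 100% of 100 genes changed by 2, with 12 false calls. Recovery of smaller changes, such as the median of -0.45 of the 10 genes in this comparison, was not tested. Whether these figures hold at the spread of the 10 genes was not tested. No pair of libraries was a duplicate (903 pairs, smallest chi-square per degree of freedom 4.44). Depth was 11.2 to 32.9 M counts, so genes with few counts early have wide errors.

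Alternatives were DESeq2 1.42.0, limma 3.58.1 on the log2 values, no replicate block, scaling by library total or by 21 germline genes, no low filter, developmental age for the hour, each hour left out, and summed pairs. All 10 genes are covered in every comparison, by value or by range, with the 3 smallest p of each list in let-7(n2853) over N2 in the late window, the 10 genes most like the set's mean, and the 1 most like each gene. The genes and the 9 lists were chosen with earlier results of these data known.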

Additional observations from a re-analysis of the deposited data

Results flagged for a closer look

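In 5 groups of 5 hourly differences, 1 hour stood far from the other 4. In let-7(n2853) minus N2 in the early window, this was 26 h for oma-2 (a log2 difference of -0.92, the others between -0.29 and -0.17), for mex-3 (-0.31, the others between 0.01 and 0.13) and for spn-4 (-0.83, the others between -0.34 and -0.20). In the late window it was 34 h for pos-1 in lin-41(xe11) minus N2 (-0.49, the others between -0.04 and 0.13) and for spn-4 in the double mutant minus N2 (-0.40, the others between 0.07 and 0.20). The 80 groups checked also include the let-7(n2853) libraries of each gene taken alone. Chance gives such a value in about 5% of groups, and the 5 found in 80 are close to that share. The groups share libraries, so they are not independent. The cause was not tested.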

How the results depend on the processing

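All 10 slopes in N2 passed under every alternative run. The late calls in let-7(n2853) minus N2, 9 of 10, became 1 with age in place of the hour, 2 with germline list scaling, 4 with limma and 0 with no replicate block (median log2 change -0.56, against -0.45 with the block), and 3 to 9 leaving out 1 hour. Without the block, the rise over the hours counts as spread within a window, which makes a call harder to reach. No alternative other than leaving out 1 hour gave more than 8 calls. oma-2 passed in 17 of 18 alternatives, all but the fit with no replicate block, pos-1 in 15 of 17 and gld-1 in 14 of 17. oma-1 passed in 13 of 18, spn-4 in 11 of 17, and mex-3, mex-5 and puf-5 in 9 of 17 each. puf-3 passed in only 4 of 18 and puf-11 in 0 of 18. With age, puf-5 (0.038) and puf-3 (0.10) changed sign, of the genes called with the hour. puf-11, not called with the hour, was negative in 16 of 18 alternatives and ran from -0.38 to 0.19. The 7 calls in let-7(n2853) minus the double mutant became 0 with age, 3 with germline scaling and 0 with no replicate block, and 3 to 7 leaving out 1 hour. Of these 7, oma-1 and oma-2 passed in 16 of 18 alternatives each and pos-1 in 15 of 17. spn-4 passed in 13 of 17, gld-1 in 12 of 17, mex-5 in 11 of 17 and puf-5 in 5 of 17. The 1 early call in let-7(n2853) became 0 with age, germline scaling or no replicate block, 2 with DESeq2, and 0 to 2 leaving out 1 hour. Among estimates that did not pass, 112 of 1441 changed sign. The cause of these changes was not tested.

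Counts of all genes moved as follows. Late, let-7(n2853) minus N2 had 3064 calls (1389 higher, 1675 lower), 1665 with age, 4765 with germline scaling (4196 higher, 569 lower), 566 with no replicate block and 1967 (without 36 h) to 3148 leaving out 1 hour; scaling by library total gave 2419 higher and 1069 lower, and limma 2396 and 1080. lin-41(xe11) minus N2 had 48, 9 with age, 75 with DESeq2, 113 with germline scaling, 25 with limma, 1 with no replicate block and 7 (without 34 h) to 50 leaving out 1 hour. The double mutant minus N2 had 117, 23 with age, 1 with no replicate block and 24 (without 34 h) to 133. let-7(n2853) minus the double mutant had 3059, 1745 with age, 5628 with germline scaling, 696 with no replicate block and 2147 to 3097. Early, let-7(n2853) had 2462, 4150 with germline scaling, 503 with no replicate block and 1503 (without 26 h) to 2495; lin-41(xe11) had 9, 25 with DESeq2, 1 with no replicate block and 4 to 10; the double mutant had 19, 49 with DESeq2, 6 with germline scaling, 11 with library totals, 5 with limma, 3 with no replicate block and 4 to 23. Late minus early, let-7(n2853) had 11, 0 with age, 40 with DESeq2, 6 with germline scaling, 17 with limma, 1 with no replicate block and 3 to 43; lin-41(xe11) had 3, 1 with age, 1 with DESeq2, 0 with limma, 0 with no replicate block and 0 to 8; the double mutant had 1, 0 with age, 3 with DESeq2, 2 with library totals, 0 with no replicate block and 1 to 3. Along N2, 8018 genes passed, and 7106 to 7968 leaving out 1 library; library totals gave 3421 higher and 4426 lower, against 4390 and 3628 with TMM.

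The early levels of puf-5, puf-3, pos-1 and the OMA pair rest on few counts, which limits what the early window can show for them.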

Other observations

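The hour at which each gene reached its N2 level of 30 h was read from lines between libraries, as a description with no test. Over the 10 genes, let-7(n2853) was later than N2 by a median of 1.37 h, with a range of -2.28 to 5.06 h and 7 of 10 genes later; oma-2 was the latest and puf-11 the earliest. lin-41(xe11) was later by a median of 0.42 h (9 of 10 later), and the double mutant differed by -0.96 h (3 of 10 later). With the N2 level of 28 h as the mark the medians were 1.65 h in let-7(n2853), 0.78 h in lin-41(xe11) and -0.70 h in the double mutant. With that of 32 h they were 1.74 h in let-7(n2853), -0.13 h in lin-41(xe11) and 0.37 h in the double mutant. The marks are single N2 libraries, and levels that were not steadily climbing, such as those of mex-3 and puf-5, cross them more than once.

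From 36 to 38 h the 10 genes went up by a median factor of 1.72 in lin-41(xe11), 1.52 in the double mutant and 1.88 in N2, as values of single libraries with no test. mex-6, which acts with mex-5 in the embryo and was chosen after its values were seen, had 5.19, 5.70, 6.95, 10.4 and 21.5 CPM in let-7(n2853) from 28 to 36 h, against 4.26, 6.68, 9.38, 20.4 and 29.7 CPM in N2, so it was lower from 30 h on. Over the late window its log2 fold change of -0.39 did not pass (edgeR adjusted p = 0.059).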
